A study of Mus musculus with 4 samples.

Results

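Neuronal genes were examined in mouse embryonic stem (ES) cells with and without SOCS3. The set held 48 genes of the neuronal cytoskeleton, the synapse, secretory granules and neurogenesis, out of 18193 genes that had a probe set with a single gene symbol. Each gene was represented by its probe set with the highest mean over the 4 arrays. The arrays carried total RNA of ES cells, wildtype on 2 arrays and SOCS3 null on the other 2, so n = 2 arrays per genotype throughout. The labels give no clone, passage, culture medium, feeder layer or description of the deleted part of the gene, and they do not say whether the 2 arrays of a genotype came from separate cultures. The spread behind each p-value is that between such arrays and could be purely technical.

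SOCS3 is an inhibitor of cytokine receptors that signal through JAK kinases and STAT3, and in mouse ES cells it limits the response to leukemia inhibitory factor. Neurons depend on a specialised cytoskeleton of neurofilaments and stabilised microtubules, on motor proteins that carry cargo along axons, and on proteins that fuse synaptic vesicles with the membrane. Outside the nervous system many of these genes are held down by the repressor REST, while proneural basic helix-loop-helix factors such as NEUROD1 and the neurogenins drive them in the neural lineage. ES cells are not neurons, and transcripts of some neuronal genes are nonetheless found in them.

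The cells and the targeted transcript were checked first. Socs3 intensity was 3024 and 1884 in wildtype cells, against 19.3 and 12.9 in SOCS3-null cells, where the median of an array was about 16. The labels do not state where the gene was cut, so a probe set outside the deleted part would not check the genotype. Pou5f1, the core stem cell transcription factor, stood at 10524 and 11675 in wildtype, against 11567 and 10524 without SOCS3. Across the probe sets tested, log2 values of the same genotype correlated at 0.995 for wildtype and 0.988 for SOCS3-null, and at 0.948 to 0.957 from one genotype to the other; probe sets are not independent replicates.

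Neuronal genes were lower in SOCS3-null cells more often than higher. A gene was said to pass when its limma adjusted p, with Benjamini-Hochberg adjustment over the 12732 genes tested, was under 0.05. Of the 48 neuronal genes 38 were bright enough to be tested; 16 of them fell, 1 rose and 21 did not pass. The share that fell was 42.1%, where 9.55% of all genes tested fell, and the share that rose was 2.63%, where 13.1% of all genes rose (22.7% passed in either direction). A fall of at least 1 on the log2 scale was seen for 12 of the 38 genes, against 3.4% of all genes. The median change of the 38 was -0.71 on the log2 scale, beside a median of -0.0050 over all genes. The largest falls were those of Ina, Crmp1, Gng3 and Uchl1, and the gene that rose was Rtn1. The 48 genes were picked with earlier results of these arrays known, in which Ina, Crmp1 and Gng3 already stood out. Their shares are therefore not independent evidence for neuronal genes in general. Of 22 further neuronal genes tested, 9.09% fell and 4.55% rose. In bulk RNA, fewer cells of a type and less RNA per cell cannot be told apart.

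Both SOCS3-null arrays lay below both wildtype arrays for 28 of the 38 genes, where 33.6% of all genes tested had that order. Both lay above for 5 genes, where 32.3% of all genes did, and the groups overlapped for 5. All 17 genes that passed had groups that did not overlap. The remaining 10 genes lay below the filter on dim probe sets, an intensity of about 10.4 on the log2 mean, and were not tested. Ina and Map2, which fell, and Pax6, which did not pass, reached that filter only through the wildtype arrays, so the counts belong to genes that passed the filter. With all 48 genes tested and no filter 11 fell and 1 rose, where 1631 of the 18193 genes on the arrays passed in either direction.

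**Figure D1:**
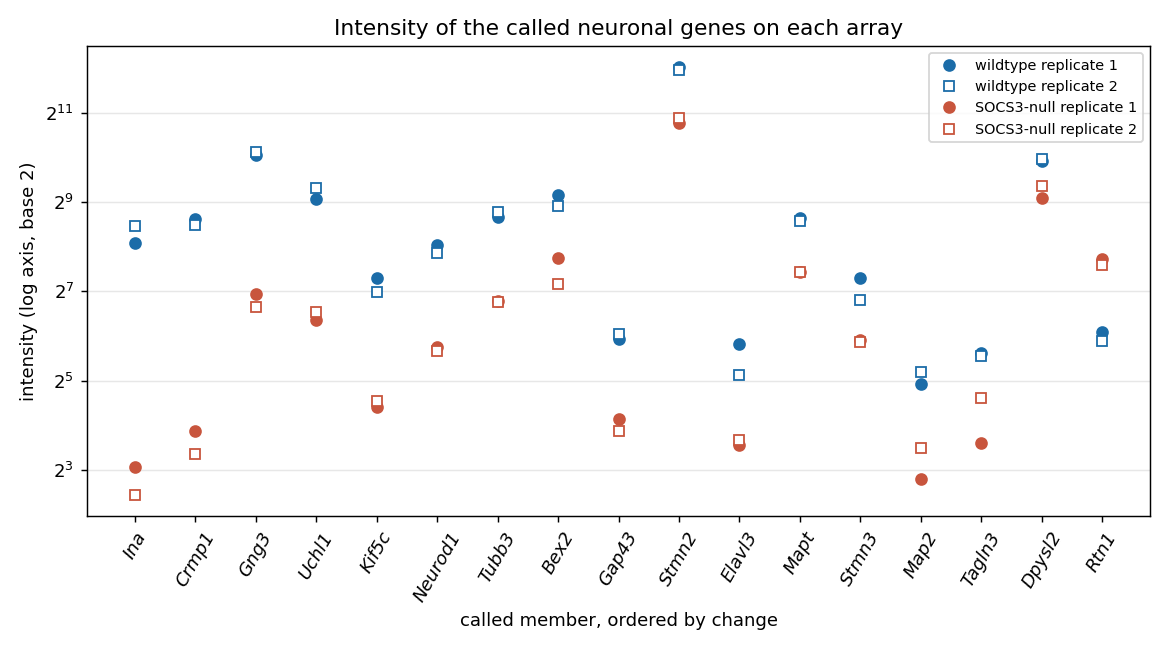
Intensity, on a log axis of base 2, of the 17 neuronal genes that passed the test, ordered from the largest fall to the rise. Circles are replicate 1 and squares replicate 2, blue for wildtype and red for SOCS3-null; for 16 genes both red symbols lie below both blue ones, and for Rtn1 both lie above.

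The largest fall was that of Ina, which encodes alpha-internexin, a neurofilament protein of early neurons. Its intensity was 272 and 352 in wildtype cells, against 8.38 and 5.44 in SOCS3-null cells. Both SOCS3-null values lay below the array medians, and the log2 change was -3.83 (SE 0.16, limma adjusted p = 0.00459). A further pair of Ina probe sets changed by -2.39 and -2.73, and both passed. Crmp1, which encodes a cytosolic protein that relays semaphorin signals to the axon's microtubules, went from 395 and 357 to 14.6 and 10.3. It changed by -3.79 (SE 0.12, adjusted p = 0.00441), again to a level below the array medians. With dim end points such as these the size of a change depends on the constant added before the log: Crmp1 changed by -4.83 with a constant of 1 and by -2.53 with 64, where 16 was added otherwise. Ina ran from -4.01 to -2.40 over all alternatives, in which the probe set that stands for the gene can change too.

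Gng3 encodes a gamma subunit of heterotrimeric G proteins that is abundant in brain. It fell from 1056 and 1104 to 122 and 100.1, so that it remained well above the array medians in SOCS3-null cells. The change was -3.11 (SE 0.12, adjusted p = 0.00441), and it ran from -3.28 to -2.71 over the alternatives. Uchl1, a ubiquitin hydrolase that is among the abundant proteins of neurons, went from 535 and 634 to 82.5 and 93.3. Its change was -2.53 (SE 0.13, adjusted p = 0.00523). For both genes the gap between genotypes was many times the gap between replicate arrays.

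The upstream sequences of these genes are shown because these genes changed most, with the motifs of REST and of basic helix-loop-helix factors looked for in them. Sequences are from RefSeq, assembly GRCm38.p6, and cover the 250 bases before the start site, 5′ to 3′ on the strand of the gene. They are chr19:47014431-47014680 on the plus strand for Ina, chr5:37241808-37242057 on the plus strand for Crmp1, chr19:8839247-8839496 on the minus strand for Gng3 and chr5:66675871-66676120 on the plus strand for Uchl1. Capitals mark matches on either strand to GGACAG, the right part of the RE1 element that REST binds, or to the E-box CAGCTG, a site type of basic helix-loop-helix factors. A match is a description of the letters and not a bound site.
Ina: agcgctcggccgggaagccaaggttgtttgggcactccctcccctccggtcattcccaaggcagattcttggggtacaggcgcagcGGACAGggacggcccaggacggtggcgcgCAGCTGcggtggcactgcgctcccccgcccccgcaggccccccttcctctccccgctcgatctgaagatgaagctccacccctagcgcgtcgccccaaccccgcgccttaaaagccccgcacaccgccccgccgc
Crmp1: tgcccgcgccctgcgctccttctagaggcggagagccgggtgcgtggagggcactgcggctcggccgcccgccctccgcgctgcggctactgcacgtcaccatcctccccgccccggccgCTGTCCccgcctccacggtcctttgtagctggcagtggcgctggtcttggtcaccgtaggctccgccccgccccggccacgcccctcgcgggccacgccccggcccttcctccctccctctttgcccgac
Gng3: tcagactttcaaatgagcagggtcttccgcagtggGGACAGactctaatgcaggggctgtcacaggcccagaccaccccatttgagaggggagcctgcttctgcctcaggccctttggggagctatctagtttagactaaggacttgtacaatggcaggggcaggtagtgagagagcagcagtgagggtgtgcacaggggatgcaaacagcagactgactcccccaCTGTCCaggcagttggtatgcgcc
Uchl1: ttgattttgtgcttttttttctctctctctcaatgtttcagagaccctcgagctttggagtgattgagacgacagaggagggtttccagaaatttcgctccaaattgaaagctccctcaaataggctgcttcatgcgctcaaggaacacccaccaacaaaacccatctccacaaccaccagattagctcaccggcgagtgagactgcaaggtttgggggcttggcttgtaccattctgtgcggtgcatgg

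Counted from the start site, Ina held GGACAG at -164 and CAGCTG at -135, Crmp1 held GGACAG on the opposite strand at -130, and Gng3 held GGACAG at -215 and on the opposite strand at -24. Uchl1 held no letters searched for. The promoters also differed in base composition over the window that runs from 250 bases before to 50 bases after the start site: CpG pairs numbered 32 in Ina and 41 in Crmp1, but 2 in Gng3 and 9 in Uchl1. Genes with CpG-rich and CpG-poor promoters thus both stood among the largest falls. A promoter was listed for 34 of the 48 genes.

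The letters TTCAGCACC, the left part of the RE1 element, stood in the promoter windows of 2 of these 34 neuronal genes (5.88%) and of 0.37% of the 27025 genes in the table, or 0.399% of the 10282 tested genes that had a promoter there. The 2 genes were Scg2 (secretogranin II) and Syn1 (synapsin I). Their 60-base stretches are shown since neither was among the genes that fell: Scg2 lay below the filter, and Syn1 was at 11.3, 11.2, 11.3 and 12.7. Coordinates are chr1:79440017-79440076 and chrX:20921109-20921168, both on the minus strand, and capitals mark the left and right RE1 parts.
Scg2: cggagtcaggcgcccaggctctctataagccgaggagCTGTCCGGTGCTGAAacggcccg
Syn1: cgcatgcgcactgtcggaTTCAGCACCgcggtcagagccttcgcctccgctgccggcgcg

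In Scg2 both parts stood side by side on the opposite strand, across the start site. Syn1 held the left part and no exact GGACAG. Only exact letters were searched for, so a right part with a mismatch would not be marked. GGACAG, with or without the left part, was in 12 of the 34 promoters (35.3%), where 22.1% of all genes in the table and 22.7% of tested genes held it. It was in 5 of the 12 promoters of genes that fell and in 2 of the 13 of tested genes that did not pass, but also in 4 of the 8 below the filter and in that of Rtn1, the gene that rose. CAGCTG was in 6 of 34 (17.6%, against 16.1% in the table) and the E-box CACGTG, searched alike, in 1, that of Bex1. The median of CpG pairs was 18 over the neuronal genes and 21 over the tested genes.

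Microtubule genes fell. Of 10 genes in this group, which binds, moves along or builds microtubules and includes the actin-binding Tagln3, 8 were tested, 7 fell and 1 did not pass, with a median change of -1.04; of all genes tested 9.55% fell. Of the 7, Map2, Stmn3 and Tagln3 did not pass without the filter (limma adjusted p = 0.056, 0.0961 and 0.129). Tubb3, the beta tubulin used as a marker of neurons, went from 403 and 438 to 111 and 109 (change -1.79, SE 0.09, limma adjusted p = 0.00513). Kif5c, a heavy chain of the axonal motor kinesin-1, went from 156 and 127 to 21.2 and 23.4 (-2.04, SE 0.13, adjusted p = 0.00654), and a second, dimmer probe set changed by -1.22 and passed. Replicate arrays lay close together for both genes, and in neither did the genotypes overlap.

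Stmn2, a tubulin-binding protein of growth cones, was at 4141 and 3952 in wildtype, against 1743 and 1900 without SOCS3. The SOCS3-null cells thus kept a signal far above the array medians, with a change of -1.15 (SE 0.09, adjusted p = 0.00818), and its other probe set changed by -1.34. Mapt, which encodes the axonal protein tau, went from 401 and 381 to 173 and 174 (-1.10, SE 0.08, adjusted p = 0.00753). Of its dimmer probe sets, 1 passed (-0.66) and 2 did not (-0.58 and -0.21).

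Stmn3, a relative of Stmn2, went from 158 and 111 to 59.7 and 58.6 (-0.98, SE 0.18, adjusted p = 0.034). Its dimmer probe set changed by -0.59 and did not pass over probe sets (limma adjusted p = 0.060). Map2, which encodes a dendritic microtubule protein, went from 30.3 and 36.3 to 6.98 and 11.3 (-0.98, SE 0.13, adjusted p = 0.0192). Its other probe sets lay below the filter and changed by -0.14 to -0.04. Stmn3 and Map2 were dim enough that the change depended on the constant added: Map2 ran from -1.79 to -0.41 over the alternatives. Tagln3 went from 49.3 and 46.9 to 12.2 and 24.5, a change of -0.92 that only just passed (adjusted p = 0.0489). It was lost with a pseudocount of 1 (adjusted p = 0.0564) or 64 (0.0567) and passed in 7 of 15 alternatives. Kif5a, another kinesin-1 chain, was at 18.9 and 17.7 against 11.9 and 11.7 and did not pass (-0.30, adjusted p = 0.0671). Dcx (doublecortin, a marker of migrating neurons) and Stmn4 lay below the filter.

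The collapsin response mediators of the set, the family of Crmp1, were all lower without SOCS3, and 2 of the 4 passed. Dpysl2, a family member that promotes axon formation by binding tubulin, went from 961 and 1004 to 547 and 661 (change -0.69, SE 0.12, limma adjusted p = 0.0325). As the mean of its probe sets it changed by -0.37 and did not pass (adjusted p = 0.0502), and its dimmer probe set changed by -0.05. Dpysl3 was at 192 and 238 against 127 and 60.8, so that the groups did not overlap but the SOCS3-null arrays differed from each other by 0.90 on the log2 scale. It did not pass (-1.13, SE 0.35, adjusted p = 0.0964), and its other 2 probe sets changed by -1.09 and -1.57 without passing. Dpysl5, near the array medians at 21.3 and 26.2 against 16.4 and 16.7, did not pass on its brightest probe set (-0.29), while a dimmer one changed by -0.49 and passed over probe sets (adjusted p = 0.0291).

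Among G protein genes Gng3 fell and Gng2 did not pass. Gng2, which encodes a gamma subunit used in many tissues, was at 316 and 331 in wildtype, against 363 and 402 without SOCS3, a change of 0.23 (SE 0.09, adjusted p = 0.166). Both SOCS3-null arrays lay slightly above both wildtype arrays for Gng2 and about 3 log2 units below them for Gng3. The difference between the changes of the 2 genes was not itself tested. The alpha subunit Gnao1, abundant in brain, lay below the filter.

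Among intermediate filament genes Ina alone passed. Beside its fall, the neurofilament light chain Nefl was at 132 and 94.1 in wildtype, against 573 and 228 without SOCS3. The medium chain Nefm was at 14.7 and 21.0 against 215 and 68.6. For both, each SOCS3-null array lay above each wildtype array, but the SOCS3-null arrays stood far apart from each other, by 1.27 and 1.45 on the log2 scale. The changes were 1.57 (SE 0.49, adjusted p = 0.099) and 2.05 (SE 0.53, adjusted p = 0.0693), and neither passed. Both passed with the filter at the 60th percentile (adjusted p = 0.0335 and 0.0191), and Nefm also with a pseudocount of 1 (0.0457). In all Nefl passed in 2 and Nefm in 3 of 16 alternatives. The heavy chain Nefh was lower, at 144 and 127 against 102 and 58.3 (-0.70, adjusted p = 0.137), and Nes, the filament of neural progenitors, was at 35.5 and 37.3 against 52.2 and 38.6 (0.22, adjusted p = 0.328).

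**Figure D2:**
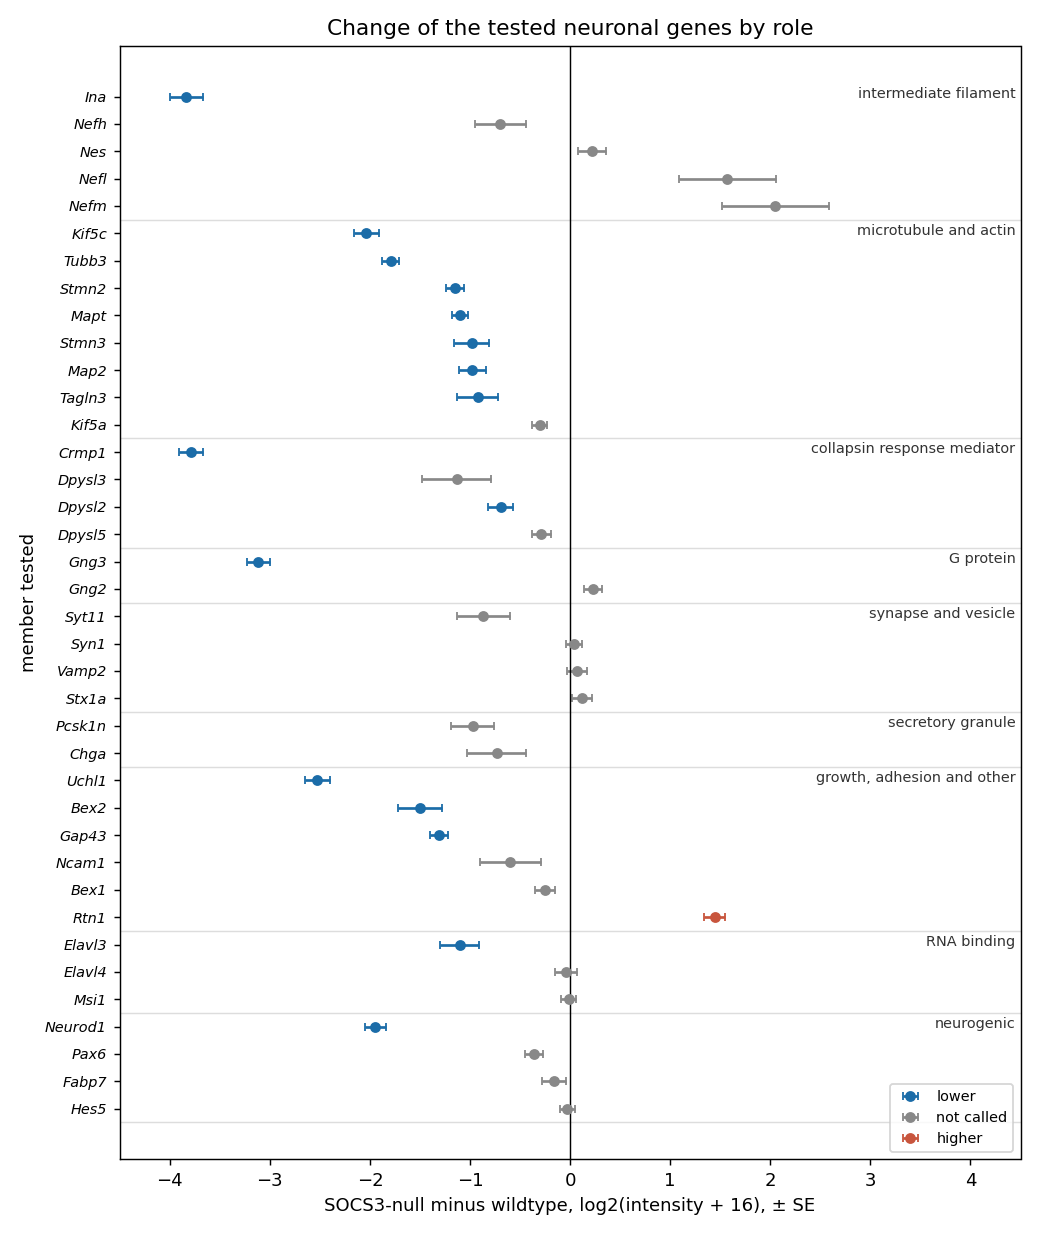
Change of each of the 38 tested neuronal genes, SOCS3-null minus wildtype on log2(intensity + 16), with the SE of the limma fit as bars, grouped by role. Blue genes fell, red rose and grey did not pass; Ina at -3.83 and Nefm at 2.05 mark the ends of the range within the same group of intermediate filaments.

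Synaptic genes did not pass on their representing probe sets. Of 6 genes 4 were tested. Stx1a, a membrane partner in vesicle fusion, was at 60.5 and 64.9 against 64.9 and 74.6, and Vamp2, its counterpart on the vesicle, at 28.1 and 26.5 against 32.6 and 26.5. Their changes were 0.12 (SE 0.10, adjusted p = 0.438) and 0.07 (SE 0.10, adjusted p = 0.68), and the groups overlapped. Syt11, a synaptotagmin, was lower in both SOCS3-null arrays, at 81.7 and 108 against 58.7 and 32.6 (-0.87, SE 0.26, adjusted p = 0.0956). Among its other 4 probe sets, 2 fell (-0.96 and -0.59) and 2 did not pass. Snap25 and Syt1, which drive and time fusion at the synapse, lay below the filter with Syt1 at 6.05 to 9.08.

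Secretory granule genes were dim or did not pass. Pcsk1n, an inhibitor of the prohormone convertase, was at 76.0 and 119 against 43.6 and 37.9. It changed by -0.97 (SE 0.22, limma adjusted p = 0.0507), just outside the threshold, and passed in 8 of its 16 alternatives. Chga (chromogranin A) was at 95.7 and 79.8 against 65.2 and 31.7 and did not pass (-0.73, adjusted p = 0.163). For both genes the SOCS3-null arrays lay below the wildtype arrays. Scg2, Scg3 and Chgb lay below the filter.

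Genes of axon growth, adhesion and other neuronal functions held both the rise and 3 falls. Gap43, a phosphoprotein of growth cones, went from 61.0 and 66.2 to 17.5 and 14.7 (change -1.31, SE 0.09, limma adjusted p = 0.00753), ending near the array medians. Rtn1, a reticulon that shapes the endoplasmic reticulum of neurons and neuroendocrine cells, went from 68.4 and 59.5 to 211 and 192. It rose by 1.44 (SE 0.11, adjusted p = 0.00769), and the change ran from 1.05 to 1.64 over the alternatives. Ncam1, the neural cell adhesion molecule, was at 62.7 and 74.4 against 57.6 and 26.2 (-0.60, adjusted p = 0.245), and none of its 5 tested probe sets passed.

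Of the brain-expressed X-linked genes Bex2 fell and Bex1 did not pass. Bex2 went from 569 and 482 to 213 and 143 (change -1.50, SE 0.22, limma adjusted p = 0.0223). Bex1 was among the brightest probe sets named here, at 14615 and 15604 in wildtype, against 11977 and 13460 without SOCS3. Its groups did not overlap, with a change of -0.25 (SE 0.10, adjusted p = 0.166). Bex genes are similar in sequence, and how far a probe set reads a sister transcript is not given in the sources used here.

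Of the RNA-binding genes Elavl3, a neuronal Hu protein that stabilises messenger RNA, fell. Its intensity went from 56.1 and 35.1 to 11.8 and 12.7 (change -1.10, SE 0.19, limma adjusted p = 0.0319), and a second probe set changed by -0.83 and passed. The dimmest probe set of Elavl3 changed by -0.40 and did not pass over probe sets (limma adjusted p = 0.265). Elavl4, another Hu protein, was near the array medians on every array, at 17.2, 13.5, 12.8 and 16.1, and Msi1 (Musashi, of neural stem cells) was at 25.9 or less on every array. Their changes were -0.04 and -0.01.

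In the neurogenic group the transcription factor Neurod1 fell. It went from 264 and 232 to 54.3 and 50.5 (change -1.95, SE 0.10, limma adjusted p = 0.00542), and its other probe set changed by -1.84. The change ran from -2.22 to -1.42 over the alternatives. Pax6, which patterns the eye and forebrain, was at 13.3 and 15.4 against 8.56 and 6.73 and did not pass (-0.36, adjusted p = 0.067). Hes5 (a Notch target) and Fabp7 (a lipid carrier of radial glia) were at 15.4 or less and at 17.4 or less on every array and changed by -0.03 and -0.16. The neurogenins Neurog1 and Neurog2, which act upstream of Neurod1 in neurons, lay below the filter.

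The 10 genes below the filter were Dcx, Stmn4, Gnao1, Snap25, Syt1, Scg2, Scg3, Chgb, Neurog1 and Neurog2. Their intensities were 3.82 to 9.87 on all 4 arrays, below every array median. No detection calls were used, so they are dim rather than shown to be absent. For these genes the intensities do not show expression in the stem cells.

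Among settings that kept all 4 arrays, some ended the calls of 6 genes. Without the filter Map2, Stmn3, Tagln3, Dpysl2, Bex2 and Elavl3 no longer passed (adjusted p = 0.056 to 0.129), and with a pseudocount of 64 Stmn3, Tagln3 and Elavl3 did not (0.0546 to 0.0637). The falls of Ina, Crmp1, Gng3, Uchl1, Kif5c, Neurod1, Tubb3, Gap43, Stmn2 and Mapt and the rise of Rtn1 passed in 12 of 16 alternatives each. The remaining 4 each left out 1 array; with 3 arrays limma made 0 calls over all genes. With 1 array left out each of these changes kept its sign, as for Ina (-4.01 to -3.66) and Rtn1 (1.36 to 1.52).

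The falls did not extend evenly to relatives of the same families. A list of 61 genes of the same or neighbouring families had 49 tested, of which 13 rose and 6 fell (26.5% and 12.2%, where 13.1% and 9.55% of all genes did), with a median change of -0.03. Stmn1, the widely expressed stathmin, fell with Stmn2 and Stmn3, from 8383 and 8242 to 3275 and 3025 (change -1.40, limma adjusted p = 0.00654). Map1b, a microtubule protein of growing axons, fell by 1.79. Map4 rose by 1.00 (limma adjusted p = 0.0274), and Map1a changed by -0.06 without passing. Map4 and Map1a were named after their values were seen. Bex4 and Elavl2, the latter a further Hu protein, changed by -1.61 and -1.97, passed and were named after their values were seen, as were the other relatives in the next sentences.

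No other beta tubulin tested fell with Tubb3. Tubb5 was at 10206 and 10253 against 10188 and 9465 (change -0.06), Tubb4b changed by -0.11, the neuronal Tubb2b by -0.70 (limma adjusted p = 0.0603), and Tubb2a rose by 0.71 (limma adjusted p = 0.0143). Kif5b, the kinesin-1 chain of most tissues, changed by -0.07, Elavl1 by -0.15 and Bex3 by 0.09, and none of these passed. In the G protein gamma family Gng10 rose by 0.59 (adjusted p = 0.0486) and Gng4, Gng11, Gng12 and Gng13 did not pass. The other reticulons Rtn2, Rtn3 and Rtn4 changed by -0.10, -0.02 and 0.34 without passing. Differences between the changes of relatives were not tested.

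**Figure D3:**
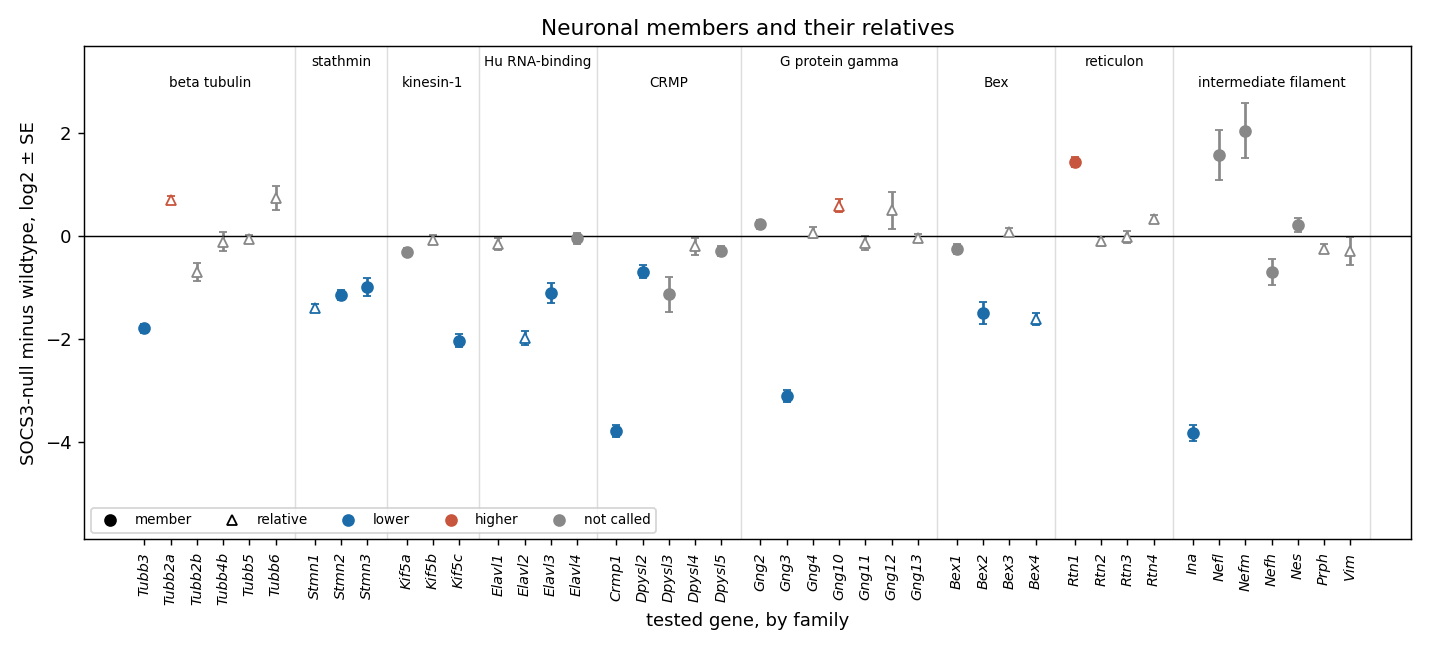
Change, SOCS3-null minus wildtype on log2(intensity + 16) with the SE as bars, of tested neuronal genes (filled circles) and relatives (open triangles) in 9 families. Blue genes fell, red rose and grey did not pass; Tubb3 at -1.79, Kif5c at -2.04 and Gng3 at -3.11 lie below their relatives, whereas all 3 stathmins lie between -1.40 and -0.98.

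Neuronal genes outside the set mostly did not pass. Of 48 further genes of synapses, transmitter systems and mature neurons 41 were on the arrays and 22 were tested. Of these 2 fell and 1 rose (9.09% and 4.55%, near or below the 9.55% and 13.1% of all genes), and the median was 0.01. Mapk8ip1, a scaffold of JNK signalling, went from 49.1 and 54.8 to 27.2 and 23.0 (change -0.73, limma adjusted p = 0.021), and Cplx1, a complexin, fell by 0.38. Camk2a, a synaptic kinase, rose by 0.68 from 14.8 and 20.5 to 37.3 and 38.2. Cplx1 passed in 6 of 16 alternatives, and did not pass with a pseudocount of 64 (adjusted p = 0.0615) or a 60th percentile filter (0.0599), while Camk2a passed in 8 of 15. The counts of this list ran from 0 to 4 falls and from 0 to 3 rises over the alternatives with all 4 arrays. The 48 neuronal genes were picked with earlier results of these arrays known, in which Ina, Crmp1 and Gng3 already stood out, so the higher share among them is not independent evidence for neuronal genes in general.

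REST, the repressor of neuronal genes, was itself lower. Rest intensity was 2811 and 2936 in wildtype, against 1912 and 1412 without SOCS3, a change of -0.80 (SE 0.17, limma adjusted p = 0.0484). Its other 3 probe sets changed by -0.80, -1.40 and -0.73, of which the first 2 passed over probe sets and the third did not (adjusted p = 0.289). The probe set that stands for the gene did not pass over probe sets either (0.0627). The call was lost with a pseudocount of 64 (adjusted p = 0.0605) and without the filter (0.123), and Rest passed in 9 of 16 alternatives. Of 16 genes for REST and its corepressors 5 fell and 4 rose (31.2% and 25%, where 9.55% and 13.1% of all genes did), with a median of -0.03. Without the filter 2 fell and 3 rose. Rcor2, a corepressor scaffold, fell by 1.00, while the corepressor Sin3b rose by 1.02 and the phosphatases Ctdsp1 and Ctdspl, which act with REST, rose by 1.07 and 1.32.

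Genes of the proneural and Notch systems, which set the pace of neurogenesis, fell more often than they rose. Of 28 genes on the arrays 18 were tested, 7 fell and 1 rose (38.9% and 5.56%, where 9.55% and 13.1% of all genes did), with a median of -0.32. Sox4, a transcription factor of neural and other progenitors, went from 1024 and 1013 to 405 and 381 (change -1.34, limma adjusted p = 0.00639). Hes6, which promotes neurogenesis, changed by -1.28, the receptor Notch2 by -0.74 and the ligand Jag1 by -1.01, and all 3 passed. Hes1, a Notch target named after its value was seen, rose by 0.88 from 132 and 103 to 210 and 248, and did not pass without the filter (adjusted p = 0.0901). Atoh1, Neurod2, Neurod6, Neurog3 and Sox1 lay below the filter.

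The SOCS3-null arrays differed from each other for some neuronal genes. A gap over 0.5 on the log2 scale between them was seen for 9 of the 38 tested genes (23.7%, where 10.3% of all genes had one), and replicate 2 was the lower in 8 of the 9, where it was so in 705 of the 1307 genes with such a gap. They were Nefl, Nefm, Nefh, Dpysl3, Syt11, Chga, Ncam1 and Bex2, with Tagln3 in the other direction. Between the wildtype arrays 1 gene, Pcsk1n, had such a gap, or 2.63% against 2.8% of all genes. Of these 9 genes 7 did not pass the test, and Bex2 and Tagln3 fell.

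**Figure D4:**
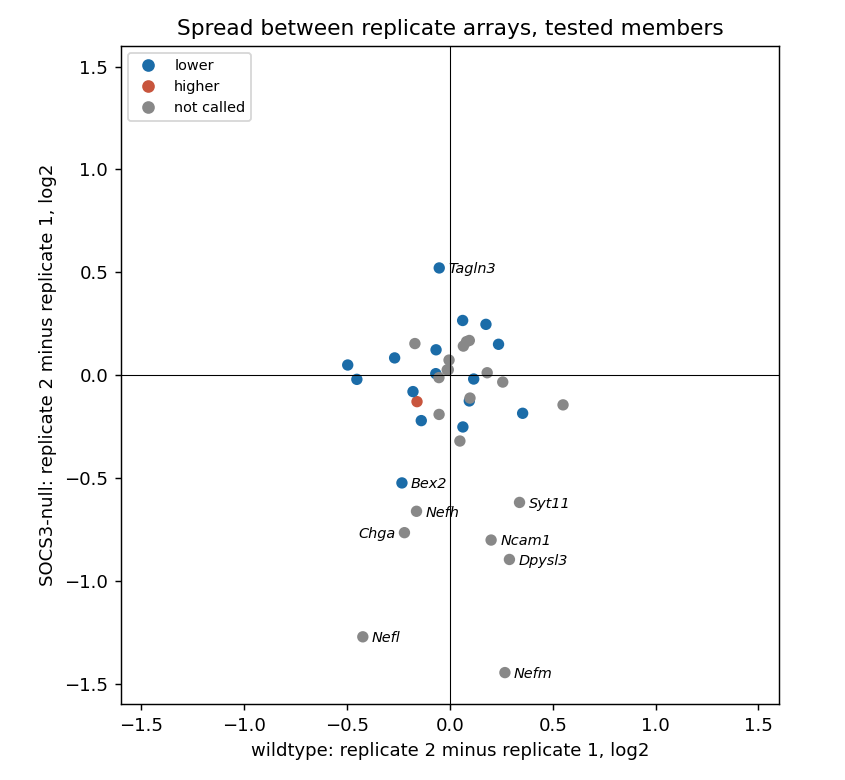
Replicate 2 minus replicate 1 on log2(intensity + 16) for each tested neuronal gene, for the wildtype arrays on the horizontal axis and the SOCS3-null arrays on the vertical axis. Named genes have a gap over 0.5 between the SOCS3-null arrays; Nefl at -1.27 and Nefm at -1.45 are the most extreme, and blue, red and grey mark genes that fell, rose or did not pass.

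Primitive endoderm markers moved with the genotype, as did some stem cell markers, while glia and neural crest markers mostly did not pass. The part of these cell types in the neuronal changes was not tested. Of 20 primitive endoderm markers 18 were tested and 16 rose (88.9%, where 13.1% of all genes rose), with a median of 4.51; their summed intensity was 3711 and 4202 in wildtype, against 62524 and 64866 without SOCS3. Gata6 and Sox17, which specify that lineage, went from 20.0 and 9.25 to 1356 and 943 and from 4.51 and 4.08 to 605 and 685, while Afp, Hnf4a and Ttr stayed at 15.5 or less on all arrays. Sox17, Foxa2 and Gata4 reached the filter only through the SOCS3-null arrays, so the count and median of this list belong to markers that passed the filter. Of 12 stem cell markers 4 fell (33.3%, where 9.55% of all genes fell) and 0 rose, with summed intensities of 82746 and 82961 against 69027 and 65200. Both SOCS3-null arrays lay below both wildtype arrays for 10 of the 12 (83.3%, where 33.6% of all genes had that order). Tcl1, Gdf3 and Fgf4 fell, with changes of -1.83, -1.74 and -1.29 (limma adjusted p = 0.00673, 0.0483 and 0.0404). Sox2, a factor of both stem cells and neural progenitors, fell by 1.01 (limma adjusted p = 0.0385), and Nanog changed by -0.42 (0.0565). Of 15 glia and neural crest markers 8 were tested and 1 rose (12.5%, near the 13.1% of all genes), Aldh1l1 by 1.75, named after its value was seen. Markers found in astrocytes differed in this list. Gfap and S100b were at 7.28 or less on every array, and Aqp4 and Slc1a2 at 8.5 or less. Slc1a3, named after its value was seen, was at 49.6 or more on every array and did not pass (change -0.24). Aldh1l1, which rose, is also found in astrocytes. The calls of Sox2 and Aldh1l1 were lost with a pseudocount of 64 (adjusted p = 0.0508 and 0.0527) and without the filter (0.108 and 0.085).

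Olig1 and Olig2, transcription factors of oligodendrocyte and motor neuron progenitors, were high on SOCS3-null replicate 1 alone. Olig1 was at 6.46 and 19.7 in wildtype, against 131 and 4.49 without SOCS3, and Olig2 at 9.89 and 11.6 against 64.6 and 8.36. Neither passed (limma adjusted p = 0.566 and 0.459), and both were named after their values were seen. SOCS3-null replicate 1 is also the array on which Nefl, Nefm, Nefh, Dpysl3, Syt11, Chga, Ncam1 and Bex2 were higher than on replicate 2. The part of such cells in these values was not tested.

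Fibroblast markers, which feeder cells would carry, did not pass the test of genotype. Of 12 such markers 10 were tested and 0 passed by limma. Both SOCS3-null arrays lay above both wildtype arrays for 4 of the 10 (40%, where 32.3% of all genes had that order) and below for 0. Their median change was 0.28. Their summed intensity was 2309 and 3968 in wildtype, against 3977 and 2586 without SOCS3, so that wildtype replicate 2 and SOCS3-null replicate 1 were the higher arrays. Nefm, Dpysl3, Syt11 and Ncam1 were also higher on those 2 arrays than on the other array of the same genotype, whereas Nefl, Nefh, Chga and Bex2 were higher on replicate 1 in both genotypes. The part of fibroblast RNA in these values was not tested.

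Probe sets of the same gene did not always give the same side of the test. The 48 genes had 107 probe sets, of which 71 were tested; 25 fell (7.3% of all probe sets tested fell) and 1 rose. Several probe sets were tested for 19 genes: in 6 of them some passed and some did not, and in 0 did they pass in opposite directions. The mixed genes were Mapt, Stmn3, Dpysl2, Dpysl5, Syt11 and Elavl3. All tested probe sets fell for Ina, Stmn2, Kif5c and Neurod1, and for the rest of the 19 none passed. Tagln3, which passed over genes, did not pass over all probe sets (adjusted p = 0.0641).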

How the data were processed

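RNA of 4 ES cell samples, 2 per genotype, was measured on expression arrays with 45101 probe sets. The authors deposited linear intensity, 1 value per probe set; how it was summarised and normalized is not given in the sources used here. Array medians agreed within 0.01 on the log2 scale, so no further normalization was applied, which leaves any change in total RNA per cell unseen. Tests used limma 3.58.1 in R 4.3.3 (lmFit and eBayes, genotype as the only term) on log2(intensity + 16), a pseudocount that understates changes of dim genes. Excluded were 64 control probe sets; 27022 probe sets at or above the 40th percentile of the log2 mean passed the filter, and the brightest per gene symbol was kept, giving 12732 genes. Symbols came from a platform annotation. The procedure was tested on simulated data. Called genes were described with all array values, with 4 uncalled members of smallest p and 3 of highest mean; of each list up to 4 genes of smallest p were named. The members and lists were chosen with earlier results of these data known, and the gap of 0.5 between replicates and the families drawn were chosen after the values were seen. Promoters were those nearest each gene's outer start in the RefSeq table. The number of arrays limits the precision. Figures were drawn with matplotlib 3.10.9.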

Additional observations from a re-analysis of the deposited data

How the results depend on the processing

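The fits were repeated with a pseudocount of 1 or 64, after quantile normalization or centring on the median, with a filter at the 60th percentile or none, with an intensity trend in eBayes (plain or robust), with the replicate block, with all probe sets of a gene averaged, with each array left out and, chosen after seeing the data, the probe set of highest linear mean and a crossed block. The count of neuronal genes that fell was 11 to 19 with all 4 arrays, and that of genes that rose was 1 in most settings, 2 with a pseudocount of 1, 3 with the filter at the 60th percentile, and 2 with the replicate block. All genes called numbered 2888, against 1631 without the filter and 1914 with the replicate block. With only 3 arrays in the fit limma gave 0 called genes and 0 neuronal genes in either direction, and 2928 to 4733 genes had an unadjusted p under 0.05. The replicate numbers are shared by label only: deviations of same-numbered arrays correlated at -0.12, the crossed pairing gave 2817 genes, 19 neuronal genes lower and 2 higher, and the block gave 15 lower and 2 higher. Under the block Nefl passed (adjusted p = 0.046), and Tagln3 (0.0648), Rest (0.0697), Hes1 (0.0653), Mapk8ip1 (0.0521), Camk2a (0.0525) and Cplx1 (0.104) did not. Pou5f1, which did not pass and changed by -0.0067, turned sign with quantile normalization (0.025) and median centring (0.0028), and ran from -0.081 to 0.068 with 1 array left out (0.068 without wildtype replicate 2 and 0.061 without SOCS3-null replicate 2); none of the 24 neuronal genes refitted, those that passed and 7 others, turned sign in any alternative. Falls of the REST list ran from 2 to 6 and rises of the relatives from 7 to 13 with all 4 arrays. Dim members are limited by signal near the array medians.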

Other observations

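Among relatives of the neuronal genes, those that rose most were not neuronal. Lmna, the lamin of differentiated cells, went from 211 and 246 to 1292 and 1323 (change 2.44, SE 0.11, limma adjusted p = 0.00459), and Tagln2, an actin-binding relative of Tagln3, from 325 and 359 to 1319 and 1491 (change 1.99). Vamp8, a vesicle fusion protein of epithelial and secretory cells, went from 94.5 and 89.9 to 586 and 870, and Fabp3, a fatty acid carrier, from 1790 and 1987 to 8509 and 11191. Vamp8 and Fabp3 were named after their values were seen. In 3 families, those of Tagln3, Vamp2 and Fabp7, the relative that rose stood beside a neuronal gene that fell or did not pass; differences between them were not tested.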
